A study of Mus musculus with 6 samples.

Results

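De novo lipogenesis builds palmitate from the acetyl-CoA of excess carbohydrate. The genes described here were 10: the transcription factors *Srebf1*, *Mlxipl*, *Nr1h3* and *Nr1h2*, the lipogenic co-regulator *Thrsp*, and the enzymes *Acly*, *Acaca*, *Acacb*, *Fasn* and *Me1*. They were chosen by gene symbol, and each matched 1 of the 45777 genes in the table. All 10 passed the filter on low counts and were among the 18636 genes tested. RNA came from whole liver of C57BL/6 mice, 8 weeks old and fasted for 24 h. The mice were male according to the paper on these data. The 3 WT mice carried Pak4 flox/flox without Cre, and the 3 LKO mice carried Alb-Cre in addition. Floxed alleles were thus common to both groups, and Cre alone was not controlled for. The albumin promoter drives Cre in hepatocytes, so that the other cells of the liver keep *Pak4*, the gene of the kinase PAK4.

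As background, ATP citrate lyase (*Acly*) splits citrate in the cytosol into acetyl-CoA, acetyl-CoA carboxylase 1 (*Acaca*) makes malonyl-CoA from it, and fatty acid synthase (*Fasn*) joins these units into palmitate with NADPH, part of which malic enzyme 1 (*Me1*) supplies. Acetyl-CoA carboxylase 2 (*Acacb*) sits at the outer mitochondrial membrane, where its malonyl-CoA inhibits the entry of fatty acids for oxidation. In liver, insulin raises SREBP-1c, a product of *Srebf1*, glucose activates ChREBP, the product of *Mlxipl*, and oxysterols activate the liver X receptors LXRα (*Nr1h3*) and LXRβ (*Nr1h2*), which in turn raise *Srebf1*. The pathway is known to be high after feeding on carbohydrate and low in fasting.

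Total counts were 45934632 to 55205564 in WT livers and 53936281 to 59576437 in LKO mice. *Pak4* had 268, 210 and 271 counts in WT livers and 85, 52 and 149 in LKO mice, which gave a log2 ratio of LKO to WT of −0.71 (edgeR adjusted p = 0.10) after scaling by TMM, the trimmed mean of M values, and −1.54 (edgeR adjusted p = 0.0056) with total counts. Its unscaled counts in LKO mice were below those of all WT mice. After TMM scaling the groups were not separate, as LKO mouse 3 was about level with WT mouse 2. The fall passed only with total counts, where the median log2 fold change of all genes was −0.90 and 51.4% of them were called lower. The TMM factors were 1.28 to 1.43 in WT livers and 0.639 to 0.816 in LKO mice, and the share of 7SL RNA was 4.55% to 5.24% and 11.2% to 15.8%. Replacing TMM by total counts moved the median log2 fold change of all genes by −0.86, and changes are therefore given on the TMM scale, with total counts beside the named genes whose call differs there. The hepatocyte marker list had a summed level of 30700 to 35100 CPM (counts brought to a common library size with TMM) in WT livers and 98400 to 110000 in LKO mice, with *Alb* at 21100 ± 2370 and 69400 ± 12600 (SD, n = 3 each), so the label of liver tissue held in every mouse.

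Of the 10 genes, 8 fell in LKO mice and 0 rose, with adjusted p under 0.05 in edgeR's quasi-likelihood test, whereas 20.5% of all genes tested fell and 19.6% rose (40.1% in either direction). Among genes with a mean WT level in the range of the 10, 30.1% fell, and among protein-coding genes fitted alone 22.7% fell and 22.4% rose. Their median log2 fold change was −1.96, beside −0.04 for all genes tested. The falls were 23.1-fold for *Thrsp*, 16.6-fold for *Fasn*, 11.3-fold for *Srebf1*, 7.95-fold for *Acly*, 4.30-fold for *Acaca*, 3.53-fold for *Me1*, 3.20-fold for *Acacb* and 2.65-fold for *Mlxipl*. The LXR genes *Nr1h3* and *Nr1h2* did not pass, with log2 fold changes of 0.17 and −0.01. For the same 8 genes every LKO mouse lay below every WT mouse in TMM-scaled CPM, which held for 27.9% of all genes tested, while 26.1% lay above without overlap. Summed over the 10 genes, the level was 1100 to 2690 CPM in WT livers and 308 to 408 CPM in LKO mice. In whole liver, fewer cells that express a gene and less of its RNA per cell cannot be told apart. The paper on these data states that de novo lipogenesis genes did not differ significantly between the genotypes, and its text does not name the genes measured. That statement follows the paper's protein and qPCR results on fasted livers and is not given as a result of the RNA sequencing used here. The paper also reports terms of lipid biosynthesis among the genes that fell in its RNA sequencing. The difference between that statement and the falls given here was not tested.

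**Figure D1:**
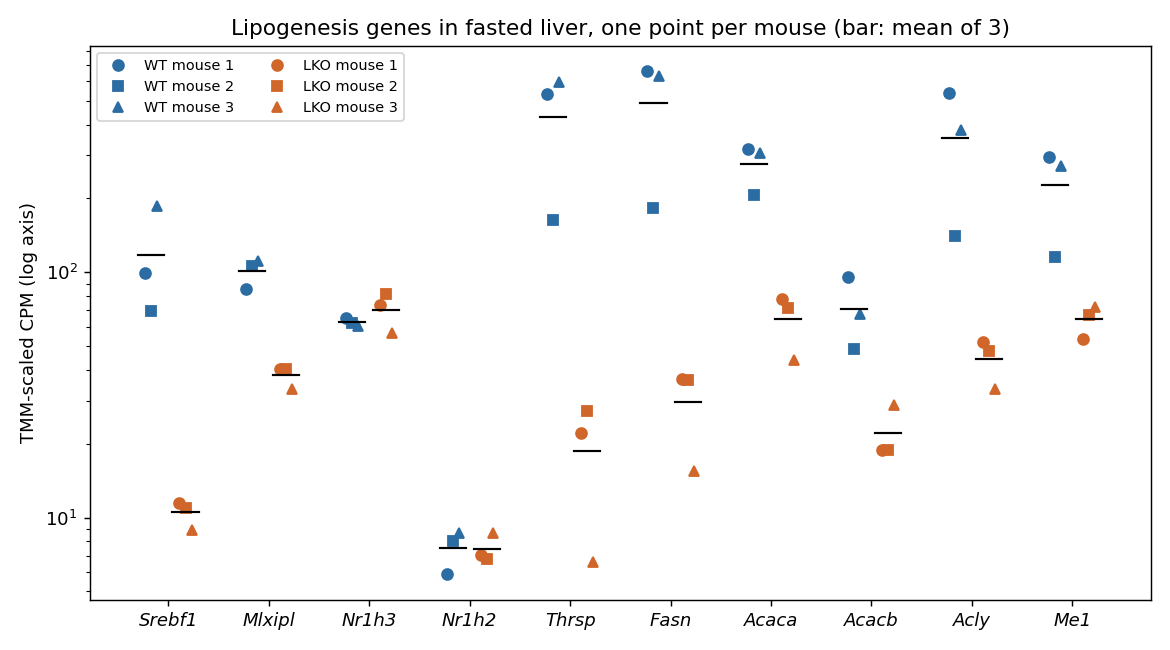
TMM-scaled CPM (log axis) of the 10 genes in each of 3 WT (blue) and 3 LKO (orange) mice, with symbols for mouse number and black bars for means. The LKO points of 8 genes lie below all WT points, those of *Nr1h3* and *Nr1h2* overlap with them, and WT mouse 2 has the lowest WT point for 7 of the 10 genes.

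Because most of these genes moved together, the promoters of 3 that fell and 1 that did not are shown. All 10 genes matched the RefSeq promoter table of GRCm38.p6, the assembly that mm10 represents, with 15 windows of 250 bases before to 50 bases after an annotated start. Capitals mark the NF-Y box CCAAT, the GC box GGGCGG bound by Sp1, the E-box CACGTG (part of the element that ChREBP binds) and the SREBP site TCACNCCAC, each on either strand.
*Fasn*, chr11:120824498-120824797, minus strand: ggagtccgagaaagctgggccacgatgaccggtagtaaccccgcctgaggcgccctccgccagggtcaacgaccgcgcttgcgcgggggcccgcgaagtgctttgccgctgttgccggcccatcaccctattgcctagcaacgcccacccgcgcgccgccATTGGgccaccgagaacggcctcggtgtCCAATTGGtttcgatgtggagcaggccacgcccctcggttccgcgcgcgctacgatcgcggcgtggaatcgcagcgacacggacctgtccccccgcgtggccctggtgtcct
*Thrsp*, chr7:97417501-97417800, minus strand: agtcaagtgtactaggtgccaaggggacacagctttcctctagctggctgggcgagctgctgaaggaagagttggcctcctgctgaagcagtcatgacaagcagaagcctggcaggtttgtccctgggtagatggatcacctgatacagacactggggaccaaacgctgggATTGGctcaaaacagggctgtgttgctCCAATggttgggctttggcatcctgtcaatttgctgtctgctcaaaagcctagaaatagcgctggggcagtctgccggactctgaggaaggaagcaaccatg
*Mlxipl*, chr5:135089640-135089939, plus strand: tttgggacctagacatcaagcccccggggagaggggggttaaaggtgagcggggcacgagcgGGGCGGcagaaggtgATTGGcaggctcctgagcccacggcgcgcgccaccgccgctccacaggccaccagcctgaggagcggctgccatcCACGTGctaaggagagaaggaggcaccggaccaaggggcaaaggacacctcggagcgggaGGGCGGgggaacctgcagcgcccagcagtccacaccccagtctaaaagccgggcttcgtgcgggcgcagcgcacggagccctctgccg
*Nr1h3*, chr2:91194986-91195285, minus strand: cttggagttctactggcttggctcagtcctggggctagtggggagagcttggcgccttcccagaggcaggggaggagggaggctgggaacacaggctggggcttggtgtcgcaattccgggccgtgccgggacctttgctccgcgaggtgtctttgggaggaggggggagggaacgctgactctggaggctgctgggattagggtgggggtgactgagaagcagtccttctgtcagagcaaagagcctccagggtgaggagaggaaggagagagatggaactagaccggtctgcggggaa

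The *Fasn* window held 3 matches to CCAAT, of which 2 overlap on opposite strands, and the *Thrsp* window, of the gene with the largest fall, held 2. *Mlxipl* held the only E-box among the 15 windows, where 7.15% of all 32851 promoters have it. Neither window of *Nr1h3* nor that of *Nr1h2* had a match to any of these 4 motifs. The window of *Acaca*, which fell 4.30-fold, also had none. That window starts at 84195188, inside the gene, which begins at 84129635. The windows of *Acacb* and *Fasn*, both windows of *Nr1h3* and all 3 of *Srebf1* also lie inside their genes. Sequence at the outer ends of *Acaca*, *Acacb*, *Fasn*, *Nr1h3* and *Srebf1* was therefore not searched. Over the genes, CCAAT was found in 8 of 15 windows (37.4% of all promoters), GGGCGG in 5 of 15 (35.7%) and TCACNCCAC in 1 of 15 (1.24%), a second window of *Mlxipl*. The receptor hexamer AGGTCA was found in 2 of 15 (16.3%), in *Acacb* and *Acly*, and a pair of them in the DR4 spacing used by LXR in 0 of 15 (0.0152%). *Srebf1* has 3 annotated starts, and its windows held CCAAT in 2 and GGGCGG in 2, without an E-box.

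Among the transcription factors, *Srebf1* (Entrez gene 20787, chromosome 11, 60199084 to 60224186 in GRCm38.p6) fell most. It was at 98.9, 69.8 and 186 CPM in WT mice 1, 2 and 3 and at 11.5, 10.9 and 8.89 CPM in LKO mice 1, 2 and 3. All LKO values were close together, and the lowest WT value was 6.05 times the highest LKO value. The log2 fold change was −3.50 (standard error 0.36, edgeR adjusted p = 0.00037), at percentile 0.746 of all genes tested. On the opposite strand, *Rai1* overlaps *Srebf1*, with 623 to 888 counts in WT livers and 216 to 365 in LKO mice beside 4570 to 12333 and 381 to 508 for *Srebf1*. The use of strand in the counting is not given in the sources used here, so reads in the overlap cannot be assigned with certainty.

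*Mlxipl* (Entrez gene 58805, chromosome 5, 135089890 to 135139768), which encodes the glucose-responsive factor ChREBP, was at 85.3, 106 and 111 CPM in WT livers and at 40.4, 40.3 and 33.5 CPM in LKO mice. Both groups were narrow and well apart. Its log2 fold change of −1.40 (standard error 0.16, edgeR adjusted p = 5.0e-04) was the smallest among the 8 genes that fell, with the smallest standard error.

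*Nr1h3* (Entrez gene 22259, chromosome 2, 91184061 to 91202829), the LXR gene enriched in liver, was at 65.0, 62.2 and 60.2 CPM in WT livers and 73.3, 81.5 and 56.3 CPM in LKO mice. The WT values lay inside the LKO range, and the test did not pass (standard error 0.16, edgeR adjusted p = 0.44). *Nr1h2* (Entrez gene 22260, chromosome 7, 44549616 to 44553968), the LXR gene expressed in most tissues, was at 5.86, 8.04 and 8.69 CPM in WT livers and 7.02, 6.77 and 8.63 CPM in LKO mice. Here too the groups overlapped (standard error 0.21, edgeR adjusted p = 0.97). With total counts in place of TMM, both were called lower (−0.71, edgeR adjusted p = 0.0068, and −0.87, edgeR adjusted p = 0.015), at 0.19 and 0.03 above the median of all genes on that scale, where 51.4% of all genes were called lower and 6.26% higher.

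*Thrsp* (Entrez gene 21835, chromosome 7, 97412933 to 97417550) encodes Spot 14, a small protein induced by carbohydrate and thyroid hormone that promotes lipogenesis. It was at 531, 163 and 595 CPM in WT livers and 22.1, 27.1 and 6.62 CPM in LKO mice. WT mouse 2 and LKO mouse 3 stood lowest in their groups, and the groups were still 6.00-fold apart at their nearest values. The log2 fold change was −4.53 (standard error 0.65, edgeR adjusted p = 0.0012), at rank 41 from the lowest of 18636.

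*Fasn* (Entrez gene 14104, chromosome 11, 120805958 to 120825166), the synthase that produces palmitate, was at 661, 182 and 629 CPM in WT livers and 36.7, 36.5 and 15.5 CPM in LKO mice. The same mice, WT 2 and LKO 3, were lowest. Its log2 fold change was −4.05 (standard error 0.55, edgeR adjusted p = 0.00095), at rank 75 from the lowest. *Acly* (Entrez gene 104112, chromosome 11, 100476352 to 100528000), which supplies acetyl-CoA, was at 537, 140 and 380 CPM in WT livers and 52.0, 47.7 and 33.4 CPM in LKO mice. WT mouse 2 was again far below the other WT mice, and the log2 fold change was −2.99 (standard error 0.45, edgeR adjusted p = 0.0015).

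The carboxylase of the cytosol, *Acaca* (Entrez gene 107476, chromosome 11, 84129635 to 84401651), was at 318, 207 and 306 CPM in WT livers and 77.7, 71.4 and 43.9 CPM in LKO mice, and its log2 change was −2.11 (standard error 0.27, edgeR adjusted p = 0.00069). The mitochondrial form *Acacb* (Entrez gene 100705, chromosome 5, 114146321 to 114250761) was at 96.1, 48.7 and 67.4 CPM in WT livers and 18.8, 18.9 and 28.7 CPM in LKO mice, with −1.68 (standard error 0.28, edgeR adjusted p = 0.0022). Both fell, and in LKO mouse 3 the first was lowest and the second highest of the LKO mice. *Me1* (Entrez gene 17436, chromosome 9, 86581363 to 86695914), the source of cytosolic NADPH among the genes described, was at 295, 115 and 270 CPM in WT livers and 53.4, 67.0 and 72.4 CPM in LKO mice. Its groups came nearest of the 8, at 1.59-fold, and its log2 change was −1.82 (standard error 0.33, edgeR adjusted p = 0.0035).

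**Figure D2:**
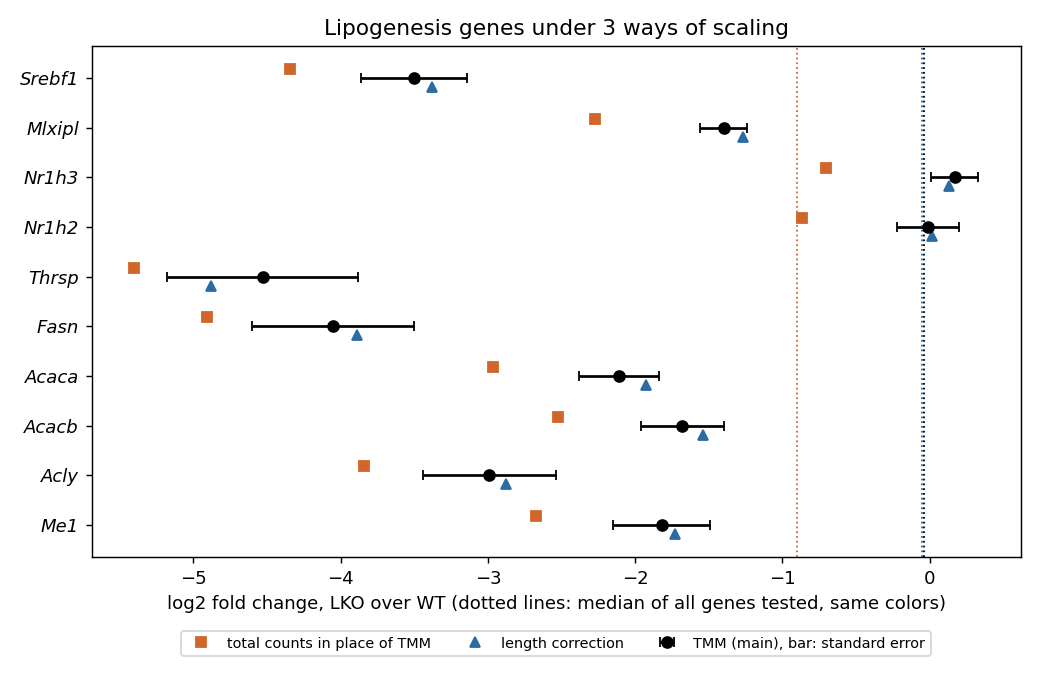
Log2 fold change of LKO over WT for the 10 genes on the TMM scale (black, bars are standard errors of the edgeR fit), with total counts in place of TMM (orange) and with a correction for gene length (blue); dotted lines give the median of all genes on each scale. The 8 genes that fell lie to the left of all 3 medians, whereas *Nr1h3* and *Nr1h2* stay near the median of each scale.

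The scaling changed the size of these falls and not their calls. With total counts the log2 fold changes of the 8 genes were −5.40 to −2.27, and relative to the median of all genes on that scale *Fasn* stood at −4.01, the same as after TMM. With a correction for gene length, which matters because several of these transcripts are long, they were −4.88 to −1.27, and all 8 were called, beside 19.9% of all genes called lower in that fit. Leaving out WT mouse 2, the mouse with low lipogenic genes, or any other mouse kept 8 genes called, with log2 fold changes of −4.47 to −3.74 for *Fasn* and −3.79 to −3.03 for *Srebf1* over the 6 such fits.

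The spread among the mice of each genotype was unequal between the genes. Over the 6899 genes whose mean reached 10 CPM, the highest WT mouse was a median of 1.23 times the lowest. For *Acly*, *Thrsp* and *Fasn* this ratio was 3.83, 3.66 and 3.64, larger than in 99.6%, 99.5% and 99.5% of these genes, and it was 2.67 for *Srebf1* and 2.56 for *Me1*. *Mlxipl* and *Nr1h3*, at 1.30 and 1.08, varied much less. WT mouse 2 was the lowest WT mouse for 7 of the 10 genes and the highest for 0, while over the 6899 genes it was lowest in 46.3%. Among LKO mice the median ratio was 1.36, and *Thrsp* (4.1) and *Fasn* (2.36) varied most, whereas *Srebf1* (1.30), *Mlxipl* (1.21) and *Me1* (1.36) were at or under that median. LKO mouse 3 was lowest for 7 genes and highest for *Nr1h2*, *Acacb* and *Me1*, while over the 6899 genes it was lowest in 36.9% and highest in 38.3%.

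To compare the genes with each other, TPM, the deposited transcript levels per length of gene, were used. In WT mice the order of the mean TPM was *Thrsp* (751 ± 382), *Acly* (155 ± 85.9), *Me1* (135 ± 53.9), *Fasn* (95.2 ± 49.6), *Nr1h3* (69.3 ± 5.64), *Acaca* (54.7 ± 10), *Srebf1* (52.8 ± 23.8), *Mlxipl* (42.5 ± 4.38), *Acacb* (15.7 ± 5.0) and *Nr1h2* (7.20 ± 1.35; SD, n = 3 each). Ranges of neighbors in this order overlapped except for *Thrsp* above *Acly*, *Nr1h3* above *Acaca*, *Mlxipl* above *Acacb* and *Acacb* above *Nr1h2*. In LKO mice the order began with *Nr1h3* (26.4 ± 3.31), *Me1* (13.4 ± 3.08), *Thrsp* (10.9 ± 5.51), *Acly* (6.76 ± 1.61) and *Mlxipl* (5.63 ± 0.880) and ended with *Acaca* (4.09 ± 1.35), *Nr1h2* (2.47 ± 0.729), *Fasn* (1.97 ± 0.757), *Acacb* (1.72 ± 0.691) and *Srebf1* (1.62 ± 0.293; SD, n = 3 each). There the range of *Nr1h3* alone stood clear of its neighbor. *Nr1h3* thus moved from rank 5 to rank 1 and *Srebf1* from rank 7 to rank 10.

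Ratios of 2 genes within a library do not depend on its scaling. *Mlxipl* over *Srebf1* was 0.841, 1.37 and 0.542 in WT livers and 3.35, 3.44 and 3.71 in LKO mice, a log2 difference of 2.03 (standard error 0.39). *Acaca* over *Fasn* was 0.478, 1.13 and 0.499 in WT livers and 2.08, 1.80 and 2.56 in LKO mice, a difference of 1.72 (standard error 0.43). *Me1* over *Fasn* was 1.36, 1.93 and 1.31 against 4.44, 5.6 and 14.2, and *Acly* over *Fasn* 1.83, 1.74 and 1.36 against 3.19, 2.94 and 4.84. In these 4 ratios every LKO value lay above every WT value. *Thrsp* over *Fasn* was 7.24, 8.07 and 8.54 in WT mice, although each gene alone varied over 3-fold among them, and 5.42, 6.70 and 3.84 in LKO mice. For these 5 ratios the exact permutation test gave p = 0.1, the smallest that 3 against 3 mice allow (two-sided; 0.14 after adjustment over the 7 ratios). *Acacb* over *Acaca* (0.341, 0.265 and 0.247 in WT; 0.274, 0.315 and 0.816 in LKO mice) and *Nr1h3* over *Nr1h2* (12.7, 9.10 and 7.95; 12.2, 14.3 and 7.54) had WT and LKO values that overlapped (exact permutation, two-sided, p = 0.4 and p = 0.8).

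**Figure D3:**
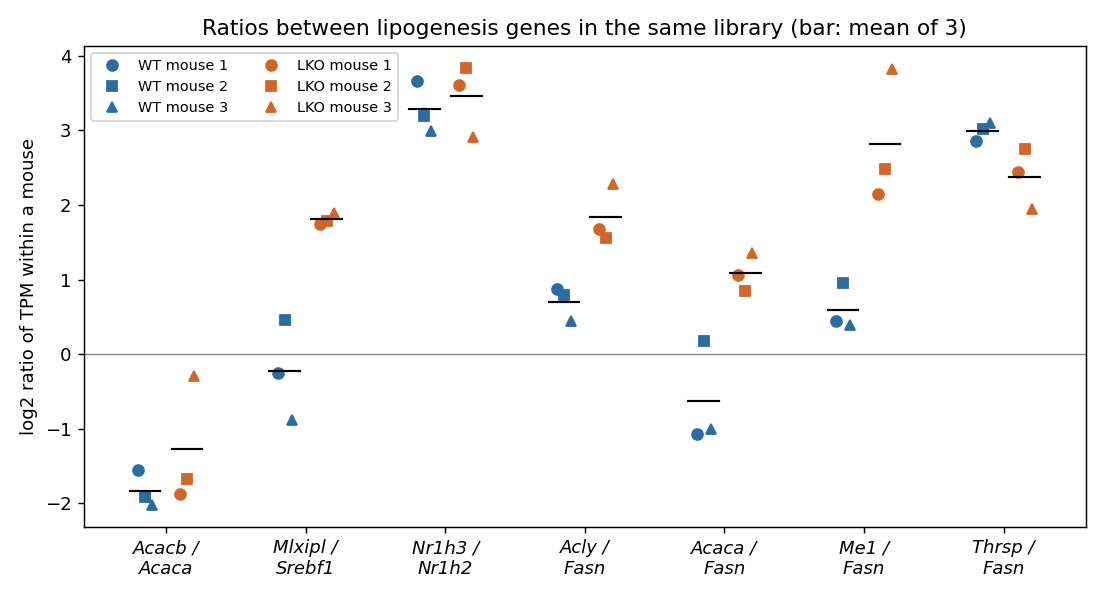
Log2 ratio of the TPM of 2 lipogenesis genes within each mouse, for 7 ratios, in 3 WT (blue) and 3 LKO (orange) mice, with black bars for means. LKO points lie above all WT points for *Mlxipl* over *Srebf1* and for *Acly*, *Acaca* and *Me1* over *Fasn*, and below them for *Thrsp* over *Fasn*.

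The other genes of the pathway were taken as 9 lists, of which 82 genes were in the table and tested. Of these, 31 fell and 11 rose, beside 20.5% and 19.6% of all genes tested. The counts depended on the scaling, as 59 were called lower and 5 higher with total counts, where the shares of all genes were 51.4% and 6.26%. The lists differed in direction, and their medians stood from −1.82 to 0.17 beside −0.04 for all genes. Each list is small, and the counts called in it are to be read beside these shares of all genes.

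**Figure D4:**
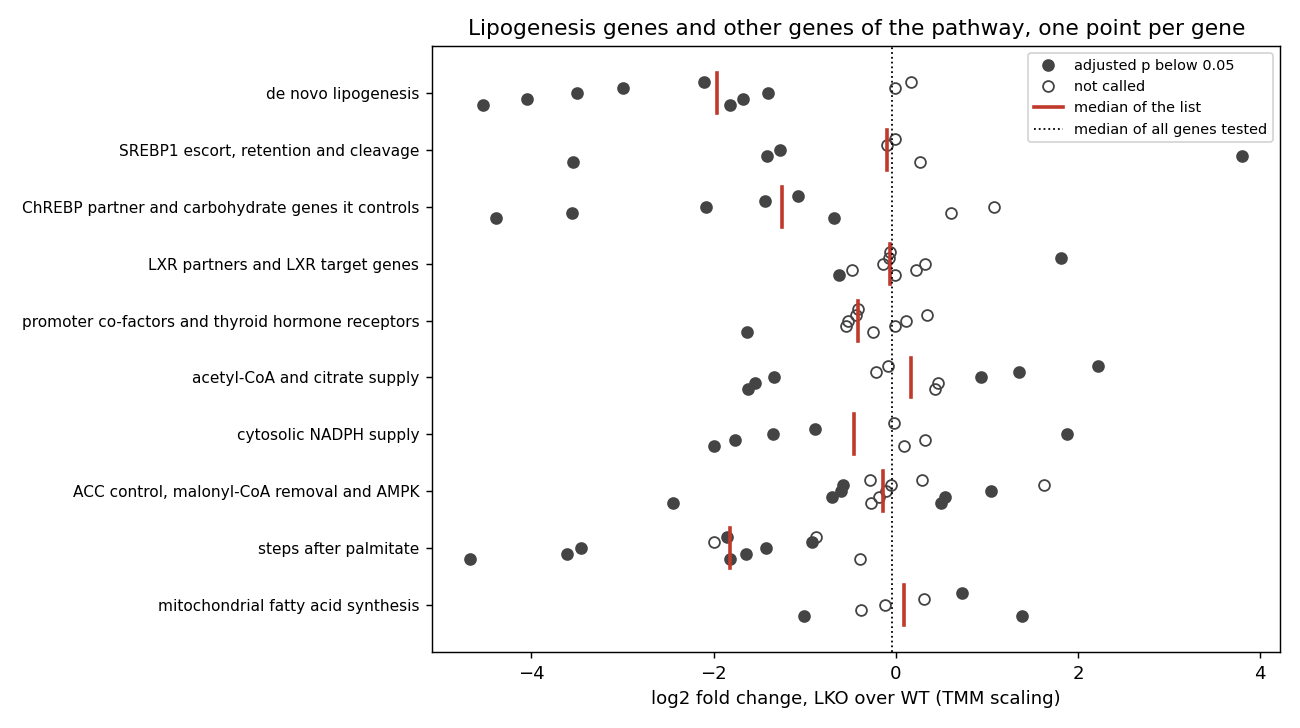
Log2 fold change of LKO over WT (TMM scale) of the 10 lipogenesis genes and of 82 other genes in 9 lists, 1 point per gene, filled where edgeR's adjusted p was below 0.05, with the median of each list in red and that of all genes tested dotted. The lipogenesis genes and the steps after palmitate have medians of −1.96 and −1.82. All points of the steps after palmitate lie below 0, and the lipogenesis genes and the other lists hold points on both sides of 0.

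For the proteins that escort, retain and cleave SREBPs, 3 of 7 genes fell and 1 rose, beside 20.5% and 19.6% of all genes tested. *Insig1*, whose protein holds SREBPs in the endoplasmic reticulum and which is itself an SREBP target, was at 334, 166 and 416 CPM in WT livers and 20.3, 24.1 and 34.6 CPM in LKO mice (log2 fold change −3.54, standard error 0.37, edgeR adjusted p = 0.00038). *Insig2*, which has the same role and a liver transcript known to be high in fasting, went the other way, from 182, 107 and 63.3 CPM to 1360, 1290 and 2260 CPM (3.80, standard error 0.43, edgeR adjusted p = 0.00049). These paralogs thus changed in opposite directions on both scales (−4.38 and 2.94 with total counts). *Srebf2*, the SREBP of cholesterol synthesis, and *Mbtps1*, the site-1 protease, fell by 1.41 and 1.27 on the log2 scale (edgeR adjusted p = 0.0011 and 0.00051), while *Scap*, the escort, was at 27.9 ± 6.89 CPM in WT livers and 27.7 ± 5.63 CPM in LKO mice (SD, n = 3; edgeR adjusted p = 0.97), and at −0.85 on the log2 scale with total counts (edgeR adjusted p = 0.014).

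Of 8 genes for the ChREBP partner and for carbohydrate enzymes under its control, 6 fell and 0 rose. Of all genes tested, 20.5% fell and 19.6% rose. *Pklr*, the liver pyruvate kinase, went from 100, 49.5 and 92.9 CPM to 9.43, 7.28 and 3.85 CPM (−3.56, standard error 0.39, edgeR adjusted p = 0.00043). *Tkfc*, a kinase of fructose breakdown, fell by 2.08 on the log2 scale (edgeR adjusted p = 0.0010). *Txnip*, a known ChREBP target, did not pass the test and was at 87.8, 73.2 and 70.5 CPM in WT livers and 88.5, 110 and 291 CPM in LKO mice (edgeR adjusted p = 0.065).

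LXR partners and targets had 1 of 9 lower, 1 higher and a median of −0.06. Of all genes tested, 20.5% were lower and 19.6% higher. With total counts 5 of 9 were called lower, beside 51.4% of all genes. *Abca1*, the cholesterol exporter induced by LXR, was at 433 ± 44.2 CPM in WT livers and 409 ± 44.4 CPM in LKO mice, and the sterol exporter *Abcg5* at 42.9 ± 11.7 and 42.6 ± 11.4 CPM (SD, n = 3; edgeR adjusted p = 0.73 and 0.98). With total counts these were among the genes called lower, at −0.95 and −0.85 (edgeR adjusted p = 0.0017 and 0.020). *Mylip*, a ligase that degrades the LDL receptor, rose from 8.89 ± 1.48 to 31.1 ± 4.99 CPM (SD, n = 3; log2 fold change 1.81, edgeR adjusted p = 0.00039). *Lpcat3*, which remodels phospholipids, was at −0.62 (edgeR adjusted p = 0.041), with overlap between the groups, and did not pass in 9 of the alternatives. Of 9 genes listed as factors that act with SREBP-1 on lipogenic promoters, thyroid hormone receptors and *Dio1*, 1 fell, *Dio1* itself (−1.63, edgeR adjusted p = 0.0028), a deiodinase gene induced by thyroid hormone and neither a promoter factor nor a receptor. The receptor gene *Thrb* was at 59.3 ± 4.61 CPM in WT livers and 43.5 ± 6.83 CPM in LKO mice (SD, n = 3; edgeR adjusted p = 0.053), and at −1.33 with total counts (edgeR adjusted p = 0.00024). On that scale 7 of these 9 genes were called lower, beside 51.4% of all genes.

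Of 10 genes for the supply of carbon to the pathway, 3 were lower and 3 higher, beside 20.5% and 19.6% of all genes tested. With total counts 6 were lower and 2 higher, beside 51.4% and 6.26% of all genes. The mitochondrial citrate carrier *Slc25a1*, citrate synthase *Cs* and the acetate-activating enzyme *Acss2* fell by 1.62, 1.55 and 1.34 on the log2 scale (edgeR adjusted p = 0.00067, 0.00055 and 0.010). The pyruvate carrier subunits *Mpc1* and *Mpc2* and *Dld*, a subunit of pyruvate dehydrogenase, had log2 fold changes of 2.22, 0.93 and 1.35 (edgeR adjusted p = 0.0014, 0.0023 and 0.00053), and *Mpc2* was at 0.07 with total counts (edgeR adjusted p = 0.75). For NADPH, 4 of 8 genes fell and 1 rose (6 and 0 with total counts), beside the same shares of all genes. *Pgd*, *Tkt* and *Taldo1* of the pentose phosphate pathway fell by 2.00, 1.77 and 1.35 (edgeR adjusted p = 0.00027, 0.00069 and 0.00094), like *Me1* in direction, whereas the cytosolic isocitrate dehydrogenase *Idh1* was at 500 ± 88.3 CPM in WT livers and 533 ± 212 CPM in LKO mice (SD, n = 3; edgeR adjusted p = 0.84), and at −0.79 with total counts (edgeR adjusted p = 0.035). *Me3*, which rose by the test, was at under 0.2 CPM in all 6 mice and did not pass with total counts (edgeR adjusted p = 0.16) or in 12 other alternatives.

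Of 14 genes that act on the carboxylases or remove malonyl-CoA, 4 fell and 3 rose, beside 20.5% and 19.6% of all genes tested. With total counts 9 fell and 0 rose, beside 51.4% and 6.26% of all genes. *Mid1ip1*, the paralog of *Thrsp* whose protein helps acetyl-CoA carboxylase to polymerize, went from 13.5, 11.4 and 24.4 CPM to 3.43, 3.24 and 2.36 CPM (−2.45, standard error 0.32, edgeR adjusted p = 0.00079). *Mlycd*, malonyl-CoA decarboxylase, which breaks down what the carboxylases make, rose from 29.3, 20.2 and 31.8 CPM to 49.0, 58.8 and 59.8 CPM (1.04, standard error 0.19, edgeR adjusted p = 0.0037), but was at 0.18 with total counts (edgeR adjusted p = 0.42). *Prkaa2*, a catalytic subunit of AMPK, the kinase that inhibits the carboxylases, fell by 0.70 (edgeR adjusted p = 0.0062), and *Btd*, which recycles their biotin, by 0.60 (edgeR adjusted p = 0.022). *Cop1* and *Aasdhppt*, the latter of which adds the prosthetic group of fatty acid synthase, had 0.54 and 0.50 (edgeR adjusted p = 0.011 and 0.037), but −0.32 and −0.37 with total counts.

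Of 11 genes for steps after palmitate, 8 fell and 0 rose, beside 20.5% and 19.6% of all genes tested. *Elovl6*, which elongates palmitate, was at 270, 93.2 and 229 CPM in WT livers and 23.4, 20.6 and 9.67 CPM in LKO mice, and the desaturase *Scd1* at 6080, 3050 and 4850 CPM and at 361, 593 and 187 CPM (log2 fold changes −3.46 and −3.61, edgeR adjusted p = 0.00090 and 0.00082). *Pnpla3*, a lipogenic lipase-family gene induced by SREBP-1c, was at 9.43, 1.96 and 10.4 CPM in WT livers and 0.295, 0.143 and 0.389 CPM in LKO mice (−4.67, standard error 0.69, edgeR adjusted p = 0.0013). WT mouse 2 was lowest of the WT mice in all 3, as for *Fasn*. The separate mitochondrial pathway of fatty acid synthesis makes the lipoate precursor. It had 1 of 6 genes lower and 2 higher, beside 20.5% and 19.6% of all genes tested. With total counts 4 were lower and 1 higher, beside 51.4% and 6.26% of all genes. *Mecr* was at −1.01, *Cbr4* at 1.39 and *Mcat* at 0.73 (edgeR adjusted p = 0.0019, 6.0e-04 and 0.028), the last at −0.14 with total counts. *Hsd17b8* of that list was not analysed here.

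Likeness to *Fasn* and *Srebf1* was measured as the root mean square difference of log2 CPM, centered for each gene over the 6 mice, among 6890 other genes whose mean reached 10 CPM. Nearest to *Fasn* were *Elovl6* (0.302), *Pklr* (0.358), *Scd1* (0.416), *Col27a1* (0.446) and *Serpina6* (0.460). Nearest to *Srebf1* were *Cyb5r3* (0.372), *Insig1* (0.390), *Serpina6* (0.400), *Pklr* (0.411) and *Hes6* (0.423). Among the 10 genes themselves, the nearest pairs were *Acacb* with *Me1* (0.265), *Nr1h3* with *Nr1h2* (0.346) and *Thrsp* with *Fasn* (0.392).

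Markers of other cell types were read beside these falls, since adipocytes also express lipogenic enzymes. The adipocyte markers *Plin1* and *Lep* had 0 counts in all 6 mice, *Adipoq* at most 4 and *Retn* at most 16, and these were not tested. Of the 2 tested, *Cfd* fell and *Fabp4* rose. The sum of *Cfd* and *Fabp4* alone was 6.37 to 12 CPM in WT livers and 16.8 to 29.5 CPM in LKO mice. The sum of all 6 markers in TPM was 16.4 to 33.1 and 17.9 to 33.0, with overlap. Macrophage markers had 3 of 6 higher and 1 lower (182 to 275 CPM summed in WT, 294 to 512 in LKO mice), endothelial markers 4 of 6 higher (227 to 271; 398 to 422) and stellate cell markers 2 of 6 higher and 1 lower (279 to 328; 569 to 824). Cholangiocyte markers had 1 of 4 tested lower (32.9 to 50.1; 13.4 to 29.9) and lymphocyte markers 2 of 7 lower (4.46 to 6.85; 2.01 to 3.89). Hepatocyte markers had 4 of 8 higher and 1 lower. Beside these counts, 19.6% of all genes tested were called higher and 20.5% lower. In TPM, the hepatocyte sum was 30200 to 34400 in WT livers and 27900 to 39300 in LKO mice and overlapped. Sums in TPM also overlapped for macrophage (130 to 210; 95.9 to 153), endothelial (116 to 159; 81.7 to 125) and stellate cell markers (148 to 197; 165 to 224). Those of cholangiocyte (41.0 to 67.4; 6.93 to 10.9) and lymphocyte markers (6.01 to 10.3; 0.691 to 1.51) were lower in LKO mice without overlap. The part of cell makeup in the falls was not tested.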

How the data were processed

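Liver RNA of 3 WT and 3 LKO mice was compared by the genotype in the labels. The authors deposited 1 table of 45777 genes with read counts, FPKM and TPM. The deposited counts of reads are unscaled whole numbers, estimated per mouse with StringTie on mm10. The submitters' processing notes list HISAT2 2.1.0, Bowtie2 2.3.4.1 and StringTie 2.1.3b. The deposited FPKM were scaled by the authors by gene length and fragments, and the deposited TPM to the same sum in each mouse. The labels name a kit that selects mRNA and the methods a kit for total RNA after removal of rRNA. Of the gene numbers, 45679 matched RefSeq of GRCm38.p6.

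Following the methods, a gene was tested if at most 1 of the 6 mice had a count of 0. The test was the quasi-likelihood test of edgeR 4.0.16 (R 4.3.3) on counts scaled by TMM, two-sided, with Benjamini-Hochberg adjustment over 18636 genes and calls under 0.05. The standard error is the log2 fold change divided by the root of the F statistic. The methods' exactTest was an alternative, with DESeq2 1.42.0, limma 3.58.1 on log2(TPM + 1) and log2(TPM + 0.1), other scalings and filters, a correction for gene length (lowess on counts over FPKM, span 0.3), the replicate number as a block, a threshold of 0.01 and each mouse left out. Single ratios were tested with exact permutation, where p cannot go under 0.1. On simulated counts for 18380 genes, the test recovered 77.3% of 97 genes changed by a log2 of 2 and 22.4% of 98 changed by 1. In the data 40.1% of genes were called, a far larger share, so these recovery rates may not hold for the actual fit.

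The 10 genes and all lists were chosen with earlier results of these data known. Named in each list were at most 3 rises and 3 falls called with the largest fold and at most 2 genes not called, and the 5 genes nearest to *Fasn* and to *Srebf1*. Precision is given as SD over 3 mice or standard error. Some genes of the lists that the rule names are not reported here.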

Additional observations from a re-analysis of the deposited data

How the results depend on the processing

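The count of 8 genes called lower and 0 higher among the 10 was kept under every alternative apart from total counts and limma on log2(TPM + 1) or log2(TPM + 0.1), which also called *Nr1h3* (−0.71, −1.36 and −1.39, reversed from 0.17) and *Nr1h2* lower. *Nr1h2*, at −0.01, changed sign to 0.02 with DESeq2, DESeq2 size factors, filterByExpr and the replicate block with length correction, 0.07 with upper-quartile scaling, 0.05 with protein-coding genes alone, 0.01 with length correction and 0.00 with the replicate block, and was −0.15 to 0.11 with each mouse left out, without passing in any of these. Of the 82 other genes, 31 lower and 11 higher became 59 and 5 with total counts and 73 and 2 with limma on either TPM scale, where 9575 (total counts), 13322 and 13535 of all 18636 genes were lower and the median of all genes shifted by −0.86, −0.75 and −1.30, and the higher ones 7 with a threshold of 0.01 and 7 to 11 with each mouse left out (7 without WT mouse 2 or WT mouse 3). The limma fits on log2(TPM + 1) and log2(TPM + 0.1) reversed *Dld* (−0.19 in both), *Mpc2* (−0.60 and −0.61), *Mlycd* (−0.46 and −0.48), *Cop1* (−0.85 and −0.99), *Aasdhppt* (−0.96 and −1.01), *Cbr4* (−0.15 and −0.16) and *Mcat* (−0.72 and −0.79), and total counts *Cop1* (−0.32), *Aasdhppt* (−0.37) and *Mcat* (−0.14), so that these reversals came with that shift of all genes. In a further 46 fits named genes kept their direction and lost their call: *Me3* in 13, *Lpcat3* in 9, *Aasdhppt* and *Mcat* in 6 each, *Btd* in 4, *Mpc2* in 3 (0.38 with length correction, adjusted p = 0.076), *Mylip* (0.23 and 0.26 with limma) and *Cop1* in 2 each and *Mlycd* in 1. The ratio of *Nr1h3* over *Nr1h2* had a log2 difference of −0.02 (without LKO mouse 2) to 0.44 with each mouse left out. Same-numbered mice did not deviate together (r = 0.019, −0.01 and −0.071 across 12999 genes), so that the numbers do not pair them, and with the replicate block 8 of the 10 genes were called lower, whereas *Mcat*, *Aasdhppt*, *Lpcat3* and *Me3* did not pass (adjusted p = 0.060, 0.060, 0.058 and 0.076). TMM places the median gene near 0, and whether total mRNA per liver cell differed was not tested.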

Other observations

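The nearest protein-coding gene tested on either side of each of the 10 genes (GENCODE M21), chosen after the values of the 10 were known, gave 20 neighbors at 51 to 326061 bases. Of these, 10 were called lower and 4 higher by edgeR, with a median log2 fold change of −0.58, where 20.5% of all genes in the same fit were lower and 19.6% higher. The rises were *Rwdd2a* (3.75, with means of 0.0558 CPM in WT livers and 0.757 CPM in LKO livers) and *Cyb5r4* (0.76) beside *Me1*, *Klhl11* (0.53) beside *Acly*, and *Ndufc2*. Beside *Fasn*, *Dus1l* and *Ccdc57* fell by 0.97 and 1.72 on the log2 scale, less than *Fasn* itself (−4.05). Beside *Thrsp* (−4.53), *Ndufc2*, a subunit of respiratory complex I, rose by 1.32 (edgeR adjusted p = 0.00076) and *Ints4* fell by 0.43 (edgeR adjusted p = 0.047). Next to *Mlxipl* (−1.40), *Tbl2* fell by 1.23 (edgeR adjusted p = 0.00076), close to the value of *Mlxipl*. Next to *Nr1h3* (0.17), *Madd*, 224 bases away, fell by 1.45 (edgeR adjusted p = 0.0059), and *Acp2*, 51 bases away, was at −0.26 (edgeR adjusted p = 0.17).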
